A study of Mus musculus with 21 samples.

Results

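A set of 35 genes of fatty acid metabolism, chosen by name from the enzymes of synthesis, activation, droplet storage and mitochondrial oxidation and from the nuclear receptors that regulate them, was followed in mouse lung after propylene glycol (PG) or vitamin E acetate (VEA). They are 35 of the 23238 gene symbols in the count files, and all 35 passed the filter on low counts that left 14727 genes. The set holds 11 genes of synthesis and its regulation, 4 acyl-CoA synthetases, 5 genes of triglyceride storage and lipolysis, 9 of mitochondrial oxidation, and 6 nuclear receptors, coactivators and their targets. The 21 C57BL/6 mice, 3 to a group, each gave 1 lung RNA library. The 7 treatments were PG at 826 and at 1100 with saline as their control, and VEA at 3.12, 6.25 and 12.5 with 10% ethanol as its control. Every animal had 50 µL placed in the trachea once a day for 14 days and was killed on day 15, and RNA came from lung tissue left after lavage of the airspaces. PG is a solvent and VEA a thickener found in vaping liquids. Sample labels and study description carry identical dose numbers with different units (mg/kg in one, mg/mL in the other), and the doses are printed here as bare numbers. Sex and age are not stated in the labels, and neither is whether VEA was itself given in ethanol.

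Fatty acid synthesis starts from citrate, which is cut to acetyl-CoA in the cytosol, and ends in chains that elongases lengthen and desaturases bend. Acyl-CoA synthetases trap fatty acids as CoA esters, which are then either built into triglyceride and kept in lipid droplets or carried by the carnitine shuttle into mitochondria and shortened there. In the lung, alveolar type II cells make fatty acids for surfactant phospholipid, alveolar macrophages take surfactant up again, and lipofibroblasts store triglyceride.

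Libraries held 8778028 to 11783151 counts, and 1 count was worth 0.0771 to 0.122 CPM after scaling by trimmed mean of M values (TMM CPM, the scale of all levels below). These are 3′ tag counts, with about 1 tag per transcript molecule, so they were not divided by gene length. Haemoglobin transcripts took 4.06 to 13.8% of the counts. In bulk tissue, fewer cells of a type and less RNA per cell cannot be told apart. The labels name animals by number only, so what separates replicates beyond the animal is not stated.

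Of the 35 members, 9 passed edgeR's quasi-likelihood test (Benjamini-Hochberg adjusted p below 0.05 over all 14727 genes) in at least 1 comparison, and in that fit those called with PG were higher and those called with VEA lower than their controls. With PG at 1100 against saline, 3 members rose (Scd1, Elovl1 and Acsl4) and 0 fell, that is 8.57% of members against 7.31% of all genes. With VEA every call was lower than ethanol. At 3.12 these were 4 members (Elovl5, Cidec, Acadm and Ppargc1a), or 11.4% against 5.51% of all genes. At 6.25 they were 2 (Cidec and Acaa2), or 5.71% against 5.76%. At 12.5 they were 5 (Acly, Cidec, Acadm, Acaa2 and Ppargc1a), or 14.3% against 9.71%. Of all genes, 2.09, 2.25 and 4.23% were called lower at the 3 VEA doses, and 4.09% were called higher with PG at 1100. Set against calls in either direction, the share of members called was near the background with PG at 1100 and with VEA at 6.25. It was above that background at the other VEA doses, where it rests on 4 and 5 genes. Set against calls in the same direction, a direction read from these same calls, the share was above the background in each of these comparisons, on 2 to 5 genes. PG at 826 gave 0 called members with edgeR, where 0.136% of all genes were called. In that comparison 5 members had an unadjusted p below 0.05, and DESeq2 and limma-voom also called 0. Other settings added calls, some in the other direction. Without the filter on low counts PG at 1100 called 7 members, 5 higher and 2 lower (Acot1 and Elovl6), and with only the compared groups in the fit VEA called Angptl4 higher at 3.12 (adjusted p = 0.0384) and Acsl4 higher at 12.5 (0.0415).

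The median log2 fold change of the members was -0.16, -0.25 and -0.28 with VEA at 3.12, 6.25 and 12.5 against ethanol, where the median of all genes was -0.01, 0.00 and -0.01. It was -0.07 and -0.03 with PG at 826 and 1100 against saline, where all genes had medians of 0.00 and 0.01. By role, the medians with VEA at 12.5 were -0.31 for synthesis, -0.05 for activation, -0.22 for storage, -0.19 for oxidation and -0.29 for the receptors and targets. With PG at 1100 they were 0.09, -0.04, -0.21, -0.03 and -0.33 in the same order of roles. All 3 VEA doses share the same ethanol animals, and both PG doses the same saline animals. Groups did not overlap for 31.4, 22.9 and 34.3% of members at the 3 VEA doses, against 24.7, 23.5 and 30.1% of all genes. With PG at 826 and 1100 they did not overlap for 14.3% of members at each dose, against 13.9 and 19.8% of all genes.

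**Figure D1:**
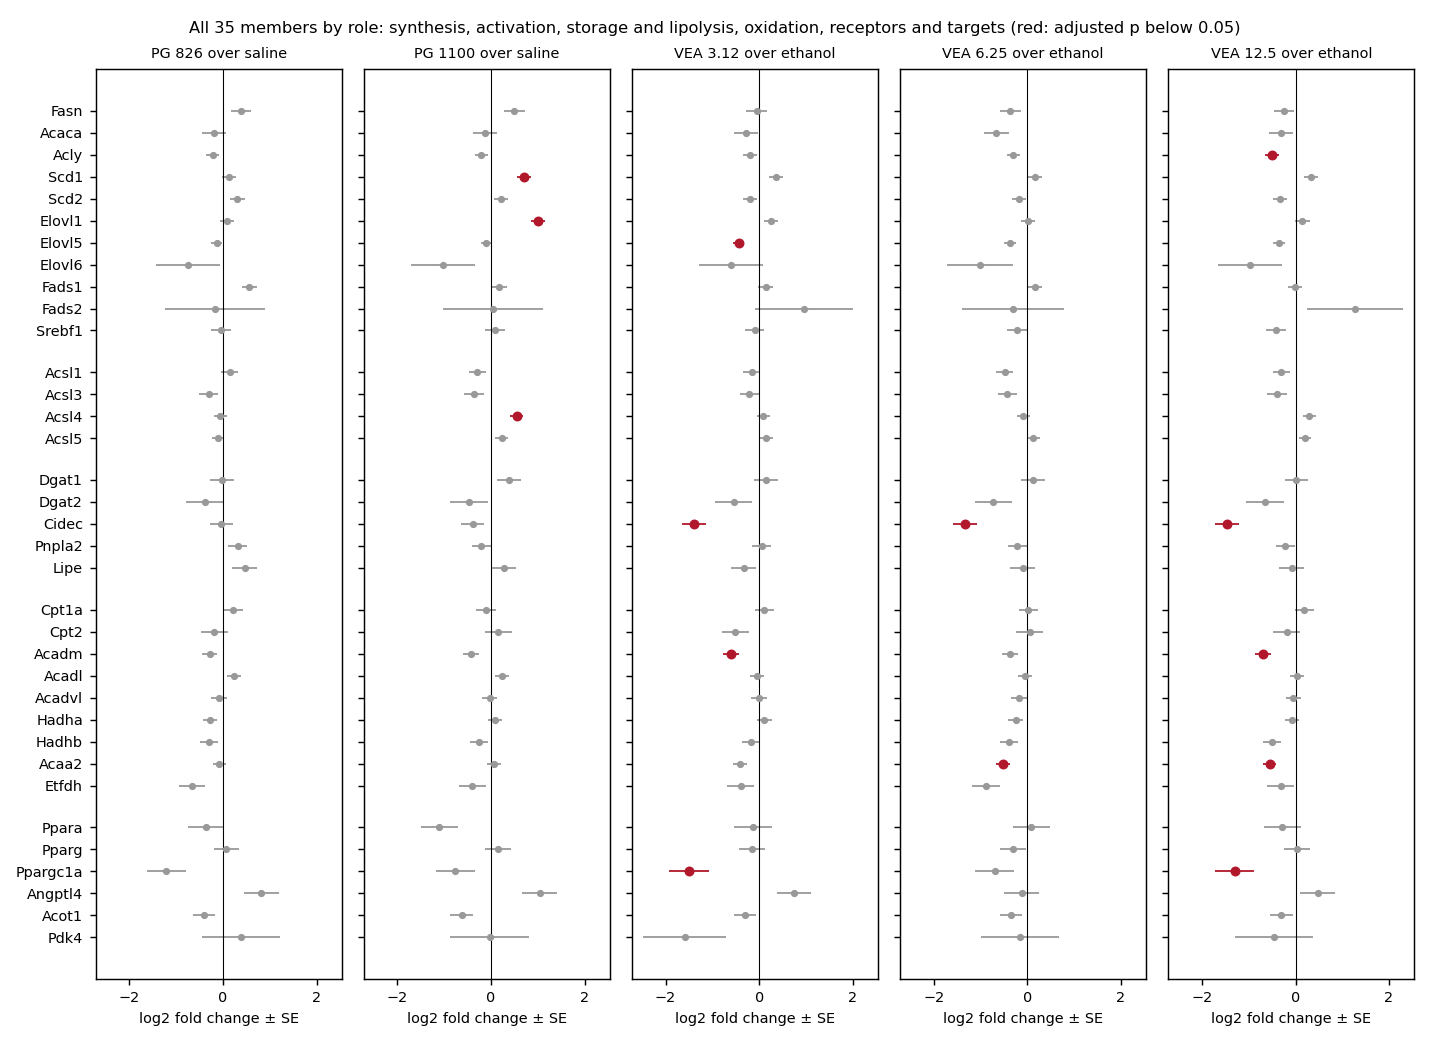
Log2 fold change (x axis, with SE bars) of each of the 35 members (y axis, ordered by role) in the 5 comparisons of an agent with its control, red where the adjusted p was below 0.05. Red points lie to the right of 0 with PG at 1100 and to the left of 0 at each VEA dose, and most members of every role are not red.

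Among the 11 synthesis genes, Scd1 and Elovl1 rose with PG at 1100, Elovl5 fell with VEA at 3.12 and Acly fell with VEA at 12.5, while the central synthase and carboxylase passed in 0 comparisons in the fit over all groups. Elovl1 (chr4:118428093-118432953, GRCm38, plus strand) encodes an elongase of saturated and monounsaturated very long chains. Its level was 365, 545 and 531 TMM CPM in the 3 PG 1100 lungs and 241, 316 and 203 in the PG 826 lungs, against 215, 270.2 and 231 in saline lungs. All 3 PG 1100 animals lay above every PG 826 and saline animal, and the PG 826 animals overlapped saline. The log2 fold change was 1.01 ± 0.15 (adjusted p = 2.18e-05) for PG 1100 over saline and 0.92 ± 0.15 (adjusted p = 1.50e-04) for PG 1100 over PG 826. Across the VEA arm it was 207, 225 and 211 TMM CPM in ethanol lungs, 293, 228 and 242 at 3.12, 213, 244 and 190.3 at 6.25 and 244, 246 and 221 at 12.5. The animals at 3.12 lay just above ethanol and the other VEA groups overlapped it, and Elovl1 passed at 0 VEA doses, with 0.15 ± 0.15 (adjusted p = 0.644) at 12.5.

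The last 53 bases of Elovl1 overlap exons of Cdc20, a cell-division gene on the other strand, and whether counting used the strand is not stated in the sources used here. Cdc20 itself had 12.6, 27.9 and 13.2 TMM CPM with PG at 1100, against 8.09, 5.48 and 6.23 in saline, a log2 fold change of 1.43 ± 0.31 (adjusted p = 0.00248). It also rose with VEA at 12.5, to 20.1, 20.3 and 17.8 against 4.72, 5.40 and 5.39 in ethanol (1.90 ± 0.32, adjusted p = 7.32e-05), a comparison in which Elovl1 was not called. The part of shared reads in the Elovl1 counts was not tested.

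Scd1 (chr19:44394455-44407879, minus strand) encodes the main stearoyl-CoA desaturase, which makes oleate. It stood at 1160.0, 1484 and 1246 TMM CPM with PG at 1100 and at 843, 902 and 849.9 with PG at 826, against 705, 661 and 1013 with saline. The 3 PG 1100 animals were above all 6 others, and the log2 fold change was 0.71 ± 0.15 (adjusted p = 0.00170) over saline and 0.58 ± 0.15 (adjusted p = 0.0137) over PG 826. In the VEA arm the values were 901, 659.8 and 906 in ethanol lungs, 984, 1107 and 1061 at 3.12, 877, 969.7 and 896 at 6.25 and 919.7, 1221 and 969 at 12.5. Scd1 did not pass there, with 0.35 ± 0.15 (adjusted p = 0.177) at 3.12 and 0.33 ± 0.15 (adjusted p = 0.173) at 12.5, although the ethanol animals lay below the animals of both of these groups. Its close relative Scd2 had 187 ± 38.3 TMM CPM with PG at 1100 and 161 ± 31.3 with saline (SD, n = 3 each), a log2 fold change of 0.22 ± 0.15 (adjusted p = 0.469). Reads shared between Scd1 and Scd2 were not tested. The Scd1 call against saline was not made when only the compared groups were fitted (adjusted p = 0.0684). Against PG 826 it also ended in that fit (0.0522), without PG 826 animal 25 (0.0753) and without PG 1100 animal 28 (0.144).

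Markers of alveolar type II cells also rose with PG at 1100. Of 12 such markers, 8 rose against saline and 8 against PG 826, and their summed level was 41576 to 63827 TMM CPM with PG at 1100, 32666 to 35512 with PG at 826 and 31202 to 43505 with saline. Sftpc alone made 33270 of the 63827 TMM CPM in PG 1100 animal 28 and 15804 of the 31202 in saline animal 6. With VEA, 3, 2 and 5 of the 12 rose and 0 fell in order of dose. The summed level was 31200 to 35104 with ethanol, 32952 to 40448 at 3.12, 31305 to 32413 at 6.25 and 33351 to 35773 at 12.5. When the log2 of that sum was added to the fit as a covariate, an alternative chosen after seeing the data, the Elovl1 difference from saline was 0.54 ± 0.17 (adjusted p = 0.0737) and that from PG 826 was 0.33 ± 0.19 (adjusted p = 0.771). Scd1 then differed by 0.60 ± 0.20 (adjusted p = 0.0859) from saline and by 0.44 ± 0.22 (adjusted p = 0.680) from PG 826, so that neither gene passed in either comparison. With adipocyte markers as the covariate in their place, Elovl1 stayed at 1.01 ± 0.16 (adjusted p = 3.73e-05) over saline. The type II sum itself was higher in every PG 1100 animal than in every PG 826 animal. This covariate therefore cannot separate cell content from treatment, and the SEs were larger with it than without it. The part of type II cells in the rises of Scd1, Elovl1 and Acsl4 was not tested.

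Elovl5 (chr9:77917364-77984519, plus strand), the elongase of polyunsaturated chains, was at 194, 235 and 215 TMM CPM in ethanol lungs, 156, 157 and 161 at VEA 3.12, 179, 161 and 159 at 6.25 and 169.6, 174 and 158 at 12.5. Every VEA animal lay below every ethanol animal. It fell at 3.12 by a log2 fold change of -0.44 ± 0.12 (adjusted p = 0.0270), while the values at 6.25 and 12.5 were -0.37 ± 0.12 (adjusted p = 0.0717) and -0.36 ± 0.12 (adjusted p = 0.0603). In the PG arm it was at 189, 197 and 185 with PG at 826 and 164, 214 and 209 with PG at 1100, against 209, 221 and 198 in saline, and did not pass. The Elovl5 call held in 6 of 14 alternatives. It ended without ethanol animal 13 (adjusted p = 0.158) or 14 (0.0679) and without any 1 of the VEA 3.12 animals 56, 57 and 59 (0.0924, 0.0741 and 0.0755). DESeq2 called Elovl5 lower at 6.25 and 12.5 as well (adjusted p = 0.0152 and 0.0151), and so did the fit of only the compared groups at 12.5 (0.0178).

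Acly (chr11:100476353-100528000, minus strand), the ATP citrate lyase that supplies cytosolic acetyl-CoA, had 122, 105 and 138 TMM CPM in ethanol lungs, 118, 104 and 93.4 at 3.12, 95.8, 112 and 88.8 at 6.25 and 83.0, 89.9 and 83.1 at 12.5. The VEA 12.5 animals were below all ethanol animals and both lower doses overlapped ethanol. The log2 fold changes were -0.20 ± 0.15 (adjusted p = 0.484), -0.30 ± 0.15 (adjusted p = 0.267) and -0.51 ± 0.15 (adjusted p = 0.0199) in order of dose, so that 12.5 alone passed. With PG the levels were 112, 89.0 and 108 at 826 and 105, 106 and 102 at 1100, against 102, 108 and 151 with saline. Without ethanol animal 12 or 14 or without any 1 of the VEA 12.5 animals 66, 68 and 70 the Acly call ended, with adjusted p of 0.0560, 0.130, 0.0816, 0.0514 and 0.0903. With the summed level of adipocyte markers, which is described with Cidec, as a covariate, Acly at 12.5 was -0.34 ± 0.16 (adjusted p = 0.252).

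The other 7 synthesis genes passed in 0 comparisons. Fasn, the fatty acid synthase, averaged 275 ± 32.3 TMM CPM with PG at 1100 and 196 ± 68.5 with saline (SD, n = 3 each), and the log2 fold change was 0.49 ± 0.22 (adjusted p = 0.217). Without saline animal 10 Fasn passed (0.79, adjusted p = 0.0212), and also without the filter on low counts (adjusted p = 0.0173). In the VEA arm Fasn averaged 214 ± 38.0 at 12.5 and 254 ± 93.3 with ethanol, a log2 fold change of -0.25 ± 0.22 (adjusted p = 0.584). Acaca, the cytosolic acetyl-CoA carboxylase, gave -0.66 ± 0.26 (adjusted p = 0.149) at VEA 6.25 and passed there without ethanol animal 13 (-0.94, adjusted p = 0.0296). Srebf1, the transcription factor that drives the synthesis genes, gave 0.09 ± 0.21 (adjusted p = 0.883) with PG at 1100 and -0.42 ± 0.21 (adjusted p = 0.231) with VEA at 12.5. The desaturase gene Fads1, which acts on polyunsaturated chains, had 56.4 ± 3.35 TMM CPM with PG at 826 and 38.2 ± 5.603 with saline, and at 0.56 ± 0.16 (adjusted p = 0.163) it had the smallest adjusted p of any member in that comparison. Fads2, its partner desaturase, was close to undetected, with group means of 0.458 to 1.41 TMM CPM. Elovl6, which elongates palmitate, had single high animals, 29.2 TMM CPM in saline animal 10 and 18.3 in ethanol animal 14, and group means otherwise of 5.62 to 7.49. Those animals also had the highest adipocyte marker sums of their groups (648 and 504 TMM CPM), a link that was not tested.

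Of the 4 acyl-CoA synthetases, Acsl4 rose with PG at 1100 and the others passed in 0 comparisons. Acsl4 (chrX:142317993-142390535, minus strand) prefers arachidonate and related polyunsaturated fatty acids. It was at 205, 318 and 226 TMM CPM with PG at 1100 and at 168, 182 and 142 with PG at 826, against 157, 179 and 178 with saline. The 3 PG 1100 animals lay above the others, animal 28 highest. The log2 fold change was 0.54 ± 0.14 (adjusted p = 0.0105) over saline and 0.61 ± 0.14 (adjusted p = 0.00528) over PG 826. In the VEA arm it was at 163, 151 and 165 in ethanol lungs, 186, 160.4 and 162 at 3.12, 144, 141 and 166 at 6.25 and 199.6, 186 and 199 at 12.5, with 0.29 ± 0.14 (adjusted p = 0.212) at 12.5 over ethanol. Without PG 1100 animal 28 neither Acsl4 call was made (adjusted p = 0.213 against saline and 0.169 against PG 826), and the second also ended without PG 826 animal 25 (0.0803). With only the compared groups in the fit the adjusted p was 0.142 and 0.0677 in those comparisons. With the type II marker sum as a covariate the difference from saline was 0.15 ± 0.16 (adjusted p = 0.717). Acsl1, the main form of adipose tissue and heart, gave -0.44 ± 0.18 (adjusted p = 0.167) for PG 1100 over PG 826 and -0.48 ± 0.18 (adjusted p = 0.117) for VEA 6.25 over ethanol, and passed in the second without ethanol animal 12 (-0.66, adjusted p = 0.0386). Acsl3 and Acsl5 had adjusted p of at least 0.150 in all 9 comparisons, but without PG 1100 animal 30 Acsl3 was called lower than saline (-0.76, adjusted p = 0.0164).

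Cidec was the one storage gene that passed, and it fell at every VEA dose. It encodes a lipid droplet protein that fuses droplets into larger ones, known from white fat and steatotic liver. The gene lies at chr6:113424634-113435760 (GRCm38, minus strand). The level was 38.4, 36.1 and 62.6 TMM CPM in ethanol lungs, 16.4, 21.2 and 14.8 at VEA 3.12, 20.5, 18.4 and 15.4 at 6.25 and 14.6, 18.1 and 17.3 at 12.5. All 9 VEA animals lay below all 3 ethanol animals, and the 3 dose groups overlapped each other. The log2 fold change over ethanol was -1.39 ± 0.26 (adjusted p = 7.73e-04) at 3.12, -1.33 ± 0.26 (adjusted p = 0.00124) at 6.25 and -1.45 ± 0.26 (adjusted p = 1.90e-04) at 12.5. Between VEA 12.5 and VEA 3.12 it was -0.06 ± 0.26 (adjusted p = 0.999), with a 95% interval of -0.57 to 0.44. In the PG arm Cidec stood at 36.2, 24.9 and 32.5 TMM CPM with 826 and 24.3, 13.3 and 34.96 with 1100, against 27.2, 26.8 and 41.5 with saline. Those groups overlapped, and PG at 1100 gave -0.40 ± 0.25 (adjusted p = 0.423). The Cidec fall held in 14 of 14, 14 of 14 and 14 of 14 alternatives at the 3 doses, with adjusted p of 4.80e-09 to 0.0127, 2.52e-08 to 0.0200 and 2.48e-10 to 0.00449.

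Adipocyte markers varied widely between animals, and 10, 9 and 9 of the 10 that were tested had log2 fold changes below 0 with VEA at 3.12, 6.25 and 12.5. All 10 were also below 0 with PG at 1100 over saline. The summed level of 12 adipocyte markers was 268 to 504 TMM CPM in ethanol lungs, 96.8 to 299 at VEA 3.12, 107 to 348 at 6.25 and 96.4 to 192 at 12.5. In the PG arm it was 155 to 337 with 826 and 65.6 to 488 with 1100, against 118 to 648 with saline. Cfd alone made 217 of the 381 TMM CPM in ethanol animal 12 and 70.4 of the 121 in VEA 12.5 animal 66. None of the 10 was called in any of the 9 comparisons by edgeR, and adiponectin (Adipoq) gave -1.73 ± 0.99 (adjusted p = 0.343) with VEA at 12.5. Among defining markers, leptin (Lep) had 6, 3 and 15 counts with ethanol, 1, 0 and 3 at VEA 3.12, 6, 0 and 1 at 6.25 and 1, 0 and 0 at 12.5. The brown fat gene Ucp1 had 9, 0 and 0 counts with ethanol and 19, 5 and 0 at VEA 6.25, and was at 0 in every library of VEA 3.12, VEA 12.5, PG 1100 and saline. With the log2 of the adipocyte sum as a covariate, added after seeing the data, Cidec fell by a log2 fold change of -1.002 ± 0.21 (adjusted p = 0.00346) at 3.12, -0.98 ± 0.21 (adjusted p = 0.00364) at 6.25 and -0.90 ± 0.22 (adjusted p = 0.00969) at 12.5. The sum of 8 lipofibroblast markers was 3803 to 4220 TMM CPM with ethanol, 3108 to 3550 at VEA 3.12, 2966 to 3284 at 6.25 and 3040 to 3113 at 12.5. It was 2926 to 3032 with PG at 1100, against 3638 to 4070 with saline. Of the 8, 1, 0 and 1 rose and 1, 1 and 2 fell with VEA in order of dose, and 2 rose and 1 fell with PG at 1100. Plin2 and Lpl, given below as pathway genes, are among the 8. Plin2 was the 1 that rose at VEA 3.12, and Lpl was among the 2 that rose with PG at 1100. The part of adipocytes or lipofibroblasts in the Cidec fall was not tested.

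**Figure D2:**
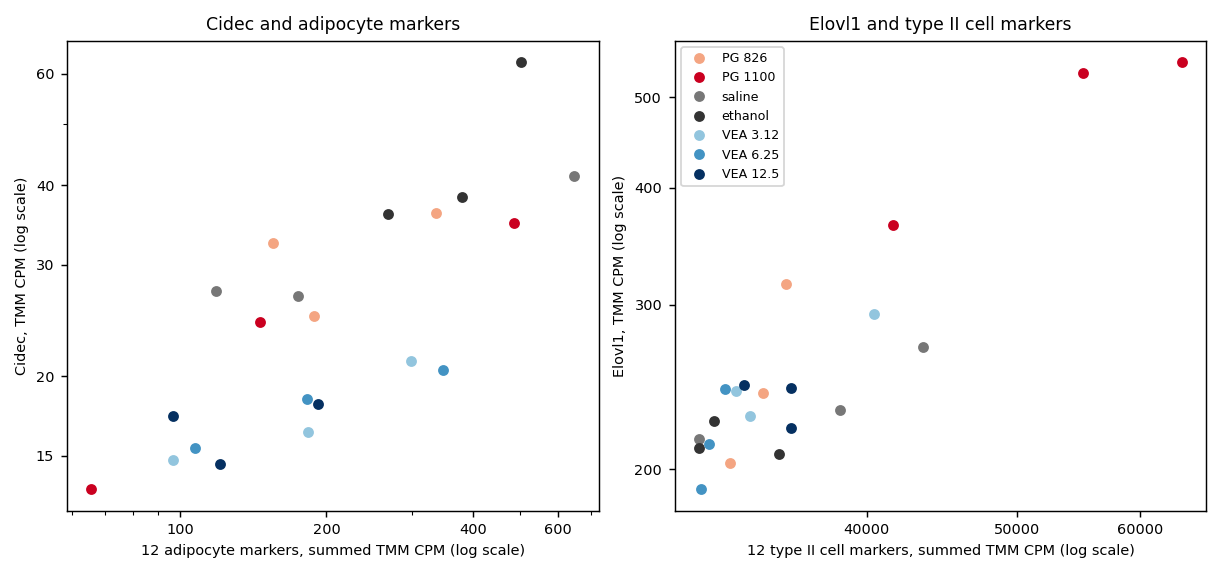
Left, Cidec (y axis) against the summed level of 12 adipocyte markers (x axis), and right, Elovl1 against the summed level of 12 type II cell markers, all in TMM CPM on log axes, 1 point per animal. Abundant markers weigh most in these sums, such as Cfd on the left and Sftpc on the right. The 9 VEA points on the left sit below every point of another group with an adipocyte sum in the same range, while PG 1100 animal 28, with the lowest sum of all animals (65.6), has Cidec at 13.3, below all 9. On the right the 3 PG 1100 points hold the highest Elovl1 levels, 2 of them with the highest marker sums.

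The promoters of the members called at 2 or more VEA doses with the largest changes are shown to give the sequence around their start sites, from RefSeq's table for GRCm38.p6. Each window runs 5′ to 3′ on the gene's strand from 250 bases before to 50 bases after a start. Capitals mark the nuclear receptor half-site AGGTCA or its reverse complement. Cidec has start sites at which windows chr6:113435711-113436010 and chr6:113434715-113435014 were taken, Acadm has chr3:153944594-153944893 and Ppargc1a has chr5:51567676-51567975, all on the minus strand.
Cidec, upstream start: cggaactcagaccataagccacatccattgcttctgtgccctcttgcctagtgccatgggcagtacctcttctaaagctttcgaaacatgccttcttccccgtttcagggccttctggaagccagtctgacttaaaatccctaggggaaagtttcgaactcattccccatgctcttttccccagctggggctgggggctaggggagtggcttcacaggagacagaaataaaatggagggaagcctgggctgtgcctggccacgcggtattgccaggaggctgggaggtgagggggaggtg
Cidec, downstream start: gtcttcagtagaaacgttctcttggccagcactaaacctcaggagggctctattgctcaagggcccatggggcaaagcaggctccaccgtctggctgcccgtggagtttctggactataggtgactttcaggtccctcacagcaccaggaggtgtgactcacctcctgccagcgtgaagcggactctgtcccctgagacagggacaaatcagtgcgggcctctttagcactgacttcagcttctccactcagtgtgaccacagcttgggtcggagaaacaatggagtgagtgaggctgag
Acadm: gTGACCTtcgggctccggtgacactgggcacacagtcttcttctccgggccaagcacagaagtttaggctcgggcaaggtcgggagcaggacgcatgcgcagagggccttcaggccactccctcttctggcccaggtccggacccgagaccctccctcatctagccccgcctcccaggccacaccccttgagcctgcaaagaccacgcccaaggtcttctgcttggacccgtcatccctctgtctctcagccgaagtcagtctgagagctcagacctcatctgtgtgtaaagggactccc
Ppargc1a: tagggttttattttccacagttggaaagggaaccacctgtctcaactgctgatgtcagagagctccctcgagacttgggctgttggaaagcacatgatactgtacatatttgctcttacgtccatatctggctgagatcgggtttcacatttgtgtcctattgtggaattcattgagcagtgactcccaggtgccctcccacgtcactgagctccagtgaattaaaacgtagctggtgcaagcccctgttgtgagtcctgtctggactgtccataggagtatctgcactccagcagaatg

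Promoter windows were held for 28 of the 35 members (36 windows). The half-site, searched on both strands, occurred in 8 of the 36 windows, of 7 genes (Acadm, Acadvl, Acly, Cpt1a, Elovl1, Elovl6 and Pparg), and in 16.3% of all 32851 windows. In the Acadm window it lies near the far 5′ end, and neither Cidec window nor that of Ppargc1a holds it. The repeat AGGTCANAGGTCA to which PPAR and RXR bind, which contains the half-site, was in 0 member windows and in 0.0396% of all. The E-box CACGTG was in 2 member windows (Elovl5 and Lipe) and 7.15% of all, and CCAAT in 15 member windows and 37.4% of all. A match describes these letters in these windows and nothing more.

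The other storage genes passed in 0 comparisons. Dgat1 and Dgat2, which add the last acyl chain of triglyceride, gave 0.02 ± 0.25 (adjusted p = 0.975) and -0.65 ± 0.40 (adjusted p = 0.367) with VEA at 12.5 and 0.38 ± 0.25 (adjusted p = 0.438) and -0.46 ± 0.41 (adjusted p = 0.594) with PG at 1100. Dgat2 was high in ethanol animal 14 (24.2 TMM CPM) and saline animal 10 (16.2), the animals with the highest adipocyte marker sums of their groups. Pnpla2, the lipase of the first step of triglyceride breakdown, averaged 63.9 ± 21.6 TMM CPM with PG at 1100 and 91.8 ± 5.94 with PG at 826, a log2 fold change of -0.52 ± 0.20 (adjusted p = 0.144), and passed without PG 1100 animal 27 (-0.82, adjusted p = 0.00505). Lipe, the hormone-sensitive lipase of the second step, gave -0.08 ± 0.27 (adjusted p = 0.913) with VEA at 12.5.

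Of the 9 genes of mitochondrial oxidation, Acadm and Acaa2 fell with VEA, and 0 passed with PG. Acadm (chr3:153922357-153944632, minus strand) encodes the medium-chain acyl-CoA dehydrogenase, the first enzyme of a shortening cycle. It was at 67.8, 55.9 and 62.1 TMM CPM in ethanol lungs, 34.1, 42.9 and 46.3 at 3.12, 47.5, 43.7 and 51.7 at 6.25 and 35.3, 41.8 and 38.5 at 12.5. Every VEA animal lay below every ethanol animal. The log2 fold change was -0.59 ± 0.17 (adjusted p = 0.0313) at 3.12, -0.38 ± 0.17 (adjusted p = 0.207) at 6.25 and -0.69 ± 0.17 (adjusted p = 0.00638) at 12.5. In the PG arm the levels were 61.6, 44.9 and 53.0 at 826 and 49.7, 51.8 and 42.8 at 1100, against 45.8, 77.9 and 70.8 with saline, which overlapped. Without saline animal 6, the lowest, Acadm was called lower with PG at 1100 (-0.63, adjusted p = 0.0150). The Acadm call at 12.5 held in 13 of 14 alternatives. The one at 3.12 ended without ethanol animal 12 (0.129) or 14 (0.0740) and without VEA animal 56 (0.188) or 57 (0.0613), all adjusted p.

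Acaa2 encodes the mitochondrial thiolase that releases acetyl-CoA at the end of a cycle. Its level was 98.2, 115 and 101 TMM CPM in ethanol lungs, 79.5, 77.5 and 78.1 at 3.12, 77.4, 65.0 and 77.1 at 6.25 and 76.4, 64.9 and 72.6 at 12.5. All 9 VEA animals were below the 3 ethanol animals. The log2 fold change was -0.42 ± 0.15 (adjusted p = 0.0902) at 3.12, -0.52 ± 0.15 (adjusted p = 0.0283) at 6.25 and -0.56 ± 0.15 (adjusted p = 0.0106) at 12.5. With PG it had 98.7, 75.6 and 89.2 at 826 and 86.4, 112 and 92.5 at 1100, against 70.8, 101 and 106 with saline. At 12.5 the Acaa2 call ended without ethanol animal 13 (0.0698) or VEA animal 68 (0.0877). At 6.25 it ended without any 1 of the ethanol animals 12, 13 and 14 (0.0505, 0.142 and 0.0545) and without VEA animal 64 (0.163) or 65 (0.0604).

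Markers of cardiac muscle, a tissue rich in these enzymes, were lower in both arms, and all 12 had log2 fold changes below 0 at each VEA dose. Their summed level was 188 to 444 TMM CPM with ethanol, 89.2 to 202 at VEA 3.12, 88.1 to 267 at 6.25 and 107 to 136 at 12.5, and 0, 0 and 2 of the 12 were called lower in order of dose. With PG at 1100 all 12 were also below 0 against saline and 2 were called lower. The summed level there was 149 to 234 TMM CPM, against 285 to 415 with saline. With that sum as a covariate Acadm at 12.5 was -0.84 ± 0.21 (adjusted p = 0.0149) and at 3.12 -0.73 ± 0.20 (adjusted p = 0.0525). Acaa2 under the cardiac covariate was -0.44 ± 0.18 (adjusted p = 0.262) at 6.25 and -0.46 ± 0.19 (adjusted p = 0.185) at 12.5, and with adipocyte markers -0.51 ± 0.16 (adjusted p = 0.0647) and -0.53 ± 0.17 (adjusted p = 0.0594). At VEA 12.5 every cardiac sum lay below every ethanol one, so the cardiac covariate cannot separate muscle content from treatment there. Markers of airway cells fell in the same comparisons. Of 7 club cell markers 3, 3 and 4 fell in order of dose, and their summed level was 51230.0 to 70507 TMM CPM with ethanol, 30093 to 35419 at VEA 3.12, 31391 to 36907 at 6.25 and 28353 to 30170.5 at 12.5. Of 8 ciliated cell markers 2, 3 and 4 fell, and their sum was 638 to 822 with ethanol, 478 to 605, 512 to 592 and 523 to 539.7 in order of dose. Every VEA animal lay below every ethanol animal in both sums. The club cell sum is mostly Scgb1a1, which made 62351 of 70507 TMM CPM in ethanol animal 12 and 25752 of 29699 in VEA 12.5 animal 66. At each VEA dose 1 of the 7 club cell markers had a log2 fold change above 0. With PG at 1100, 3 club cell and 2 ciliated cell markers fell against saline. The part of airway cells, cardiac muscle or adipocytes in the falls of Cidec, Elovl5, Acly, Acadm, Acaa2 and Ppargc1a was not tested.

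The remaining oxidation genes passed in 0 comparisons. Cpt1a and Cpt2, the carnitine palmitoyltransferases of the outer and inner mitochondrial membrane, gave 0.18 ± 0.20 (adjusted p = 0.661) and -0.19 ± 0.29 (adjusted p = 0.767) with VEA at 12.5. Acadl and Acadvl, the dehydrogenases of long and very long chains, gave 0.03 ± 0.15 (adjusted p = 0.929) and -0.04 ± 0.17 (adjusted p = 0.919). Hadha and Hadhb, the subunits of the trifunctional protein, gave -0.08 ± 0.16 (adjusted p = 0.842) and -0.51 ± 0.19 (adjusted p = 0.0927) in the same comparison. Etfdh, which passes electrons from the dehydrogenases to ubiquinone, had 11.9, 10.8 and 5.18 TMM CPM with VEA at 6.25, against 15.7, 18.1 and 17.9 with ethanol, and -0.89 ± 0.29 (adjusted p = 0.0670). Without VEA animal 63 Etfdh passed (-1.10, adjusted p = 0.0448). The 3′ ends of Acadvl, Hadha and Srebf1 overlap exons of Dvl2, Garem2 and Rai1 on the other strand, so their counts could hold reads of those genes.

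**Figure D3:**
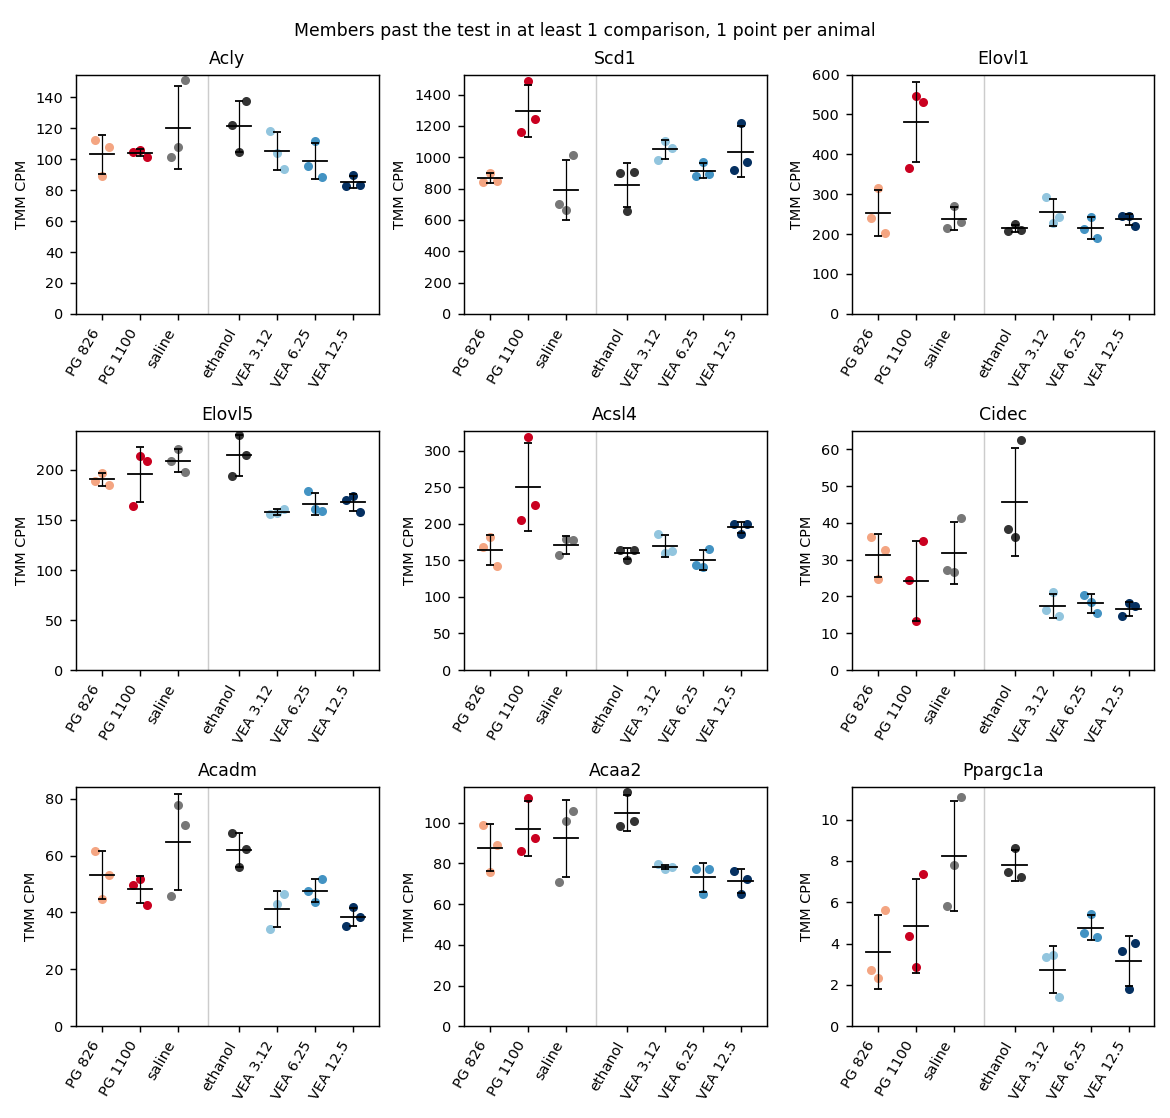
Level (y axis, TMM CPM from 0) of the 9 members past the test in at least 1 comparison, 1 point per animal, with the group mean as a bar and the SD as an error bar. Scd1, Elovl1 and Acsl4 stand highest with PG at 1100, and the ethanol points of Cidec, Elovl5, Acadm, Acaa2 and Ppargc1a lie above all 9 VEA points.

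Of the 6 receptors, coactivators and targets, Ppargc1a passed. It encodes PGC-1α, a coactivator of genes of mitochondria and fatty acid oxidation, at chr5:51454250-51567726 (minus strand). It was lowly expressed, with 7.46, 8.64 and 7.23 TMM CPM in ethanol lungs, 3.33, 3.44 and 1.43 at 3.12, 4.53, 5.45 and 4.34 at 6.25 and 3.63, 1.79 and 4.04 at 12.5. These rest on 215, 80, 130 and 117 counts over the 3 animals of each group. Every VEA animal was below every ethanol animal. The log2 fold change was -1.50 ± 0.43 (adjusted p = 0.0327) at 3.12, -0.70 ± 0.42 (adjusted p = 0.382) at 6.25 and -1.30 ± 0.42 (adjusted p = 0.0437) at 12.5. In the PG arm it was at 2.74, 2.35 and 5.62 with 826 and 4.35, 2.88 and 7.35 with 1100, against 5.82, 7.79 and 11.1 with saline, and -0.76 ± 0.42 (adjusted p = 0.318) with 1100. Leaving out any 1 of the 3 ethanol or 3 VEA animals ended the Ppargc1a call at 12.5 (adjusted p = 0.0651 without animal 70 to 0.234 without animal 68). At 3.12 any 1 of the ethanol animals 12, 13 and 14 or VEA animals 56 and 59 ended it (0.0599 without animal 14 to 0.184 without animal 59). With cardiac markers as a covariate it was -1.19 ± 0.52 (adjusted p = 0.284) at 3.12 and -0.96 ± 0.53 (adjusted p = 0.395) at 12.5.

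The receptors themselves did not pass. Ppara, the PPAR of fatty acid oxidation, had 5.70, 3.54 and 6.12 TMM CPM with PG at 1100, against 11.6, 13.3 and 8.37 with saline, and -1.11 ± 0.40 (adjusted p = 0.0831). The groups did not overlap. Ethanol lungs, at 2.48 to 7.24 TMM CPM, also lay below every saline lung, though Ppara was not called for ethanol over saline. Ppara with VEA at 12.5 gave -0.28 ± 0.40 (adjusted p = 0.752). Pparg, the PPAR of adipocytes and alveolar macrophages, gave 0.15 ± 0.27 (adjusted p = 0.836) with PG at 1100 and 0.03 ± 0.27 (adjusted p = 0.965) with VEA at 12.5. Among their targets, Angptl4, a secreted inhibitor of lipoprotein lipase, averaged 28.9 ± 9.05 TMM CPM with PG at 1100 and 14.0 ± 6.58 with saline, and 1.04 ± 0.37 (adjusted p = 0.104). DESeq2 called this rise (adjusted p = 0.0359), and edgeR did without saline animal 10 (1.49, adjusted p = 0.0227). Acot1, a cytosolic acyl-CoA thioesterase with a close relative in Acot2 that could share reads, gave -0.63 ± 0.24 (adjusted p = 0.113) with PG at 1100. Pdk4, the kinase that holds pyruvate back from oxidation, had group means of 0.775 to 2.46 TMM CPM and passed in 0 comparisons.

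Doses and controls were compared directly. PG at 1100 over PG at 826 called the same 3 members as over saline, all higher, 8.57% against 5.55% of all genes in either direction and 2.85% higher, and these comparisons share the PG 1100 animals. VEA at 12.5 over 3.12 called 0 members and 0 of 14727 genes with edgeR, where 1 member and 801 genes had an unadjusted p below 0.05. DESeq2 and limma-voom called 0 members there. Ethanol over saline called 0 members and 0 genes with edgeR, where 2 members and 892 genes had an unadjusted p below 0.05, and again 0 members by the other tools. The difference between the effects of VEA at 12.5 and PG at 1100, each over its own control, was tested as an interaction, and 0 members passed with edgeR, against 0.19% of all genes. In it 5 members had an unadjusted p below 0.05, and DESeq2 called 1 member, Elovl1 (adjusted p = 0.0293), as edgeR did without PG 1100 animal 27 (0.0179). Without the filter on low counts edgeR called 3 members, all below 0: Elovl1 (adjusted p = 0.00658), Cidec (0.0296) and Fasn (0.0409). With the filter and all libraries, Elovl1 had the smallest adjusted p of the members, at -0.86 ± 0.22 (adjusted p = 0.0855). Cidec was there at -1.06 ± 0.36 (adjusted p = 0.325) with a 95% interval of -1.76 to -0.35. That interval is not adjusted for the number of genes. Calls of a difference between the agents thus depended on the setting. A call with 1 agent and not the other does not by itself show a difference between them. An agent that missed the threshold is not shown to leave a member as it was.

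Genes of the same pathways outside the 35 were counted in 6 lists, against the 7.31% of all genes called with PG at 1100 and 5.51, 5.76 and 9.71% with VEA in order of dose. Of 26 other storage and lipolysis genes that passed the filter, 3 rose and 2 fell with PG at 1100, and 2 and 1, 1 and 1, and 4 and 2 rose and fell with VEA at 3.12, 6.25 and 12.5. Lipa, the lysosomal lipase of cholesteryl esters and triglyceride, was at 82.7, 114 and 83.9 TMM CPM with PG at 1100 and 53.7, 61.0 and 57.7 with 826, against 40.6, 25.7 and 35.4 with saline, and rose at 1100 by 1.46 ± 0.18 (adjusted p = 8.58e-07) on the log2 scale. With VEA, Lipa was at 48.5, 50.0 and 46.2 in ethanol lungs, 61.7, 104 and 81.9 at 3.12, 78.4, 87.8 and 54.2 at 6.25 and 107, 113 and 111 at 12.5, and passed at all 3 doses, with 1.19 ± 0.18 (adjusted p = 1.21e-05) at 12.5. G0s2, an inhibitor of the lipase Pnpla2, fell in the same 4 comparisons. Its level was 37.8, 33.1 and 32.8 TMM CPM with PG at 1100, against 65.0, 78.6 and 82.8 with saline (-1.13 ± 0.16, adjusted p = 4.75e-06). In the VEA arm G0s2 was at 69.6, 94.5 and 90.5 with ethanol, 45.7, 55.1 and 42.7 at 3.12, 49.2, 44.2 and 53.1 at 6.25 and 37.4, 43.1 and 34.5 at 12.5, and the change at 12.5 was -1.15 ± 0.15 (adjusted p = 2.24e-06). Hilpda, another Pnpla2 inhibitor, fell with PG at 1100 over saline (-0.80 ± 0.15, adjusted p = 4.74e-04) and over 826 (-0.64 ± 0.15, adjusted p = 0.00714). Hilpda was at 209, 213 and 272 TMM CPM with VEA at 12.5, against 314, 302 and 454 with ethanol, and every VEA animal lay below every ethanol animal. Plin2, a coat protein of droplets, rose with VEA at 3.12 (0.50 ± 0.15, adjusted p = 0.0465) and with PG at 1100 over 826 (0.63 ± 0.15, adjusted p = 0.00895). Plin2 was at 143, 135 and 181 TMM CPM with VEA at 12.5, against 92.9, 104 and 99.5 with ethanol. With PG at 1100 it was at 131, 208 and 134, against 89.4, 85.1 and 119 with saline. At most the 3 largest called changes per list and comparison are named, so a gene not named in a comparison may also have passed there. Gpam, the first acyltransferase of triglyceride synthesis, had 28, 33 and 19 counts with VEA at 12.5, against 0, 0 and 4 with ethanol (adjusted p = 0.0290), while saline libraries had 37, 12 and 9.

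Markers of recruited macrophages moved with Lipa. Of 12 markers of recruited macrophages, 8 rose with PG at 1100 and 10, 10 and 11 with VEA at 3.12, 6.25 and 12.5, and their summed level was 569 to 1645 TMM CPM with PG at 1100, against 229 to 238 with saline. In the VEA arm the sum was 238 to 273 with ethanol, 531 to 777 at 3.12, 649 to 773 at 6.25 and 764 to 975 at 12.5. Of 10 alveolar macrophage markers, 4 rose and 1 fell with PG at 1100, and 4, 3 and 5 rose and 0, 0 and 1 fell with VEA in order of dose. At both 6.25 and 12.5, 5 of the 10 had log2 fold changes below 0. The part of either cell type in the Lipa result was not tested.

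**Figure D4:**
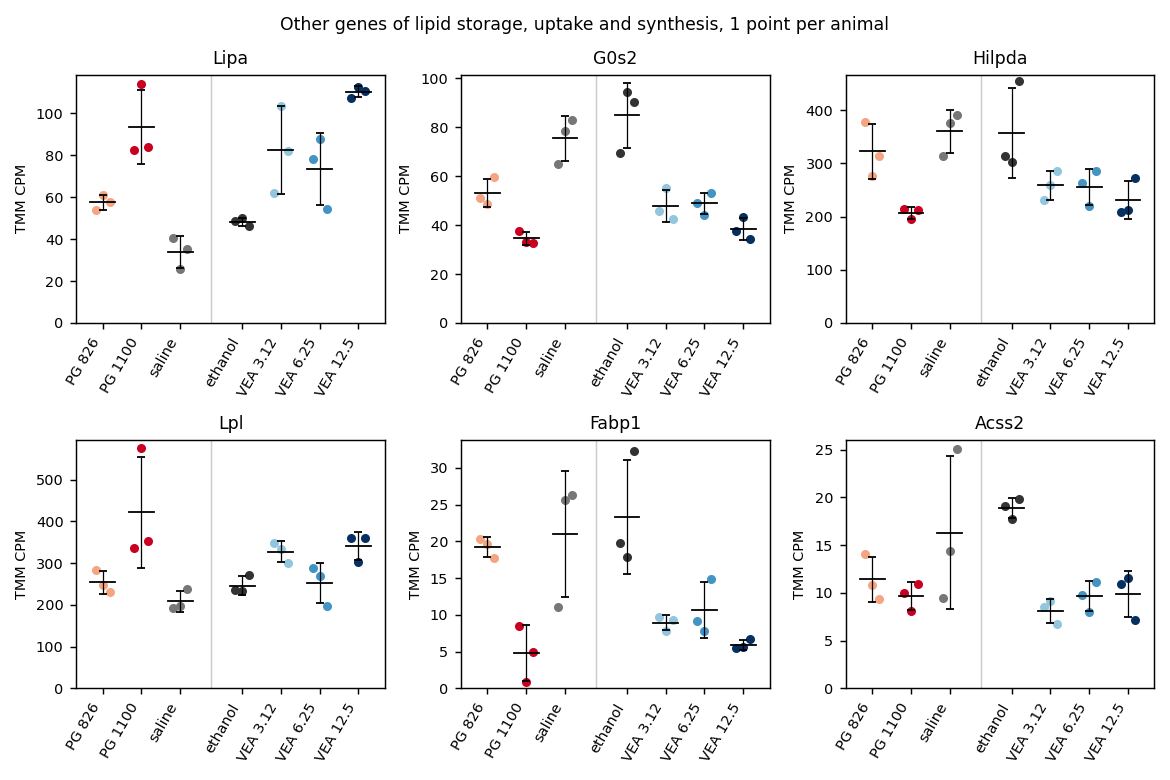
Level (y axis, TMM CPM from 0) of 6 pathway genes outside the 35 members, 1 point per animal, with the group mean as a bar and the SD as an error bar. The Lipa mean is highest and the G0s2 mean lowest with PG at 1100 and VEA at 12.5 within their arms, and all VEA points of Acss2 and Fabp1 lie below the ethanol points.

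Of 17 genes of fatty acid uptake and binding, 1 rose and 2 fell with PG at 1100, 1 rose with VEA at 3.12, 0 passed at 6.25, and 1 rose and 4 fell at 12.5. Lpl, the lipoprotein lipase, was at 337, 576 and 352 TMM CPM with PG at 1100, against 192, 197 and 237 with saline, and rose by 1.01 ± 0.16 (adjusted p = 4.47e-05) on the log2 scale. Fabp1, a fatty acid binding protein, was at 8.50, 0.886 and 4.90 with PG at 1100, against 11.1, 25.7 and 26.3 with saline (-2.12 ± 0.45, adjusted p = 0.00380), and fell with VEA at 12.5 too (-1.98 ± 0.43, adjusted p = 0.00427). Cd36, a fatty acid transporter, fell with PG at 1100 (-0.45 ± 0.13, adjusted p = 0.0234), and Gpihbp1, which anchors lipoprotein lipase on capillaries, fell with VEA at 12.5 (-0.63 ± 0.14, adjusted p = 0.00246). With VEA at 12.5 Cd36 was at 426, 374 and 424 TMM CPM, against 536, 542 and 537 with ethanol. Fabp5 rose with VEA at 3.12 (1.07 ± 0.29, adjusted p = 0.0411) and 12.5 (1.05 ± 0.29, adjusted p = 0.0297). Of 9 capillary endothelium markers, with Gpihbp1 among them, 7 fell with PG at 1100 and 3, 3 and 4 fell with VEA in order of dose.

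Of 27 other synthesis genes, Hacd1, a dehydratase of chain elongation, was alone in rising with PG at 1100 (1.19 ± 0.23, adjusted p = 4.45e-04). Acss2, which makes cytosolic acetyl-CoA from acetate, was alone in falling at each VEA dose. Acss2 was at 19.1, 17.7 and 19.9 TMM CPM in ethanol lungs, 8.56, 9.14 and 6.73 at 3.12, 9.82, 7.96 and 11.1 at 6.25 and 10.95, 11.5 and 7.15 at 12.5, with log2 fold changes of -1.21 ± 0.29 (adjusted p = 0.00728), -0.97 ± 0.28 (adjusted p = 0.0337) and -0.93 ± 0.28 (adjusted p = 0.0270). Of 24 other mitochondrial oxidation genes, 0 passed with PG at 1100, and 1 fell at VEA 3.12, 2 fell at 6.25, and 1 rose and 1 fell at 12.5. Pcca, a subunit of propionyl-CoA carboxylase, fell at all 3 doses (-1.05 ± 0.24, adjusted p = 0.00482 at 6.25). Acad11, an acyl-CoA dehydrogenase, fell at 6.25 (-1.12 ± 0.31, adjusted p = 0.0225), and Ucp2, an inner-membrane carrier, rose at 12.5 (0.55 ± 0.15, adjusted p = 0.0171). Of 15 peroxisomal oxidation genes, 1 rose and 1 fell with PG at 1100 (Abcd3, a transporter, at 0.49 ± 0.13, adjusted p = 0.0145, and Acaa1b, a thiolase, at -0.99 ± 0.28, adjusted p = 0.0222). The branched-chain oxidase gene Acox2 fell with VEA at 3.12 (-1.68 ± 0.48, adjusted p = 0.0314) and 12.5 (-1.75 ± 0.48, adjusted p = 0.0138), and Acaa1a, a peroxisomal thiolase, rose at 3.12 (0.51 ± 0.16, adjusted p = 0.0476). Of 13 other PPAR partners and targets, Txnip, which binds thioredoxin and limits glucose uptake, fell with VEA at 3.12 (-0.83 ± 0.19, adjusted p = 0.00623) and 6.25 (-0.71 ± 0.19, adjusted p = 0.0203). The median log2 fold changes with PG at 1100 and with VEA at 12.5 were -0.05 and -0.08 for storage, -0.18 and -0.40 for uptake, -0.05 and -0.03 for synthesis, 0.09 and -0.07 for mitochondrial oxidation, 0.22 and 0.03 for peroxisomal oxidation, and -0.13 and 0.05 for the PPAR partners. All pathway adjusted p are from the same edgeR fit over all 14727 genes.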

How the data were processed

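Lung RNA of 21 mice was measured with 3′ tag sequencing (Lexogen QuantSeq, 500 ng of total RNA, per the labels' protocols). Per the submitters' processing notes, Bowtie2, bedtools and the mm10 assembly were used, with no version given, and the annotation and strand setting are not given in the sources used here. The deposited files hold counts per gene symbol, 23282 rows each, and where a symbol had several rows (35 symbols) these were added up. Genes were filtered by group with filterByExpr (minimum count 10), scaled by TMM and compared by edgeR (version 4.0.16, R 4.3.3) in 1 robust quasi-likelihood fit over all 21 libraries, with a mean per group and 14 residual degrees of freedom. P-values were adjusted by Benjamini-Hochberg over 14727 genes in each comparison and called below 0.05. DESeq2 1.42.0, limma-voom (limma 3.58.1), other filters and left-out libraries were alternatives. Within groups the chi-square per degree of freedom between libraries was 8.14 to 40.5, and no pair of libraries agreed within sampling noise. Members, lists and tests were chosen with earlier results of these data known. Members called in at least 1 comparison with a highest group mean of at least 5 TMM CPM are given for every library, and from each pathway list at most 3 called genes per comparison are named. Gene positions are from GENCODE M21 (GRCm38), a choice made here.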

Additional observations from a re-analysis of the deposited data

How the results depend on the processing

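Every one of the 17 calls of a member kept its direction under the 14 alternatives. Cidec kept its call at each VEA dose and Elovl1 against saline under all 14. A threshold of at least 1 on the absolute log2 fold change removes, by construction, the smaller calls, leaving 0 members for PG 1100 over PG 826, 1 for PG 1100 over saline, and 2, 1 and 2 with VEA at 3.12, 6.25 and 12.5. Without the filter on low counts the members called were 7 for PG 1100 over saline, 1 for PG 826 over saline, 4 for VEA 6.25 and 3 for the difference between agents. With only the compared groups in the fit they were 1 for PG 1100 over PG 826, 1 over saline and 9 for VEA 12.5. Leaving out the 3 libraries that detected fewest genes, they were 2, 1 and 3 with VEA in order of dose. DESeq2 called 1 member for the difference between agents, and added Angptl4 with PG at 1100 over saline and Elovl5 with VEA at 6.25 and 12.5. Leaving out single libraries gave 1 to 4 members for PG 1100 over PG 826, 2 to 5 over saline, 1 to 2, 1 to 3 and 2 to 3 with VEA in order of dose, and 0 to 1 for the agents' difference. The cause of these moves was not tested. Over all genes, DESeq2 called 96 for the agents' difference, 64 for PG 826, 3 for VEA 12.5 over 3.12 and 1 for ethanol over saline, and limma-voom 8 for the agents' difference. Without the filter the counts were 198, 162, 60 and 17 in the same order of comparisons. The fold threshold left 268 for PG 1100 over 826, 477 and 12 for PG 1100 and 826 over saline, and 358, 371 and 638 with VEA in order of dose. With only the compared groups the counts were 14 for the agents' difference, 425 for PG 1100 over 826, 444 over saline and 24 for VEA 12.5 over 3.12. Without the 3 libraries they were 12 for the agents' difference, 6 for PG 826, 539 for VEA 3.12 and 316 for VEA 6.25. Leaving out single libraries gave 12 to 48 for the agents' difference, 259 to 1458 for PG 1100 over 826, 547 to 1207 over saline, 5 to 120 for PG 826, 434 to 621, 427 to 811 and 873 to 1090 with VEA in order of dose, 0 to 8 for VEA 12.5 over 3.12 and 0 to 2 for ethanol over saline. No paired analysis was possible because animal numbers are not shared between groups. Of the marker covariates, added after seeing the data, the type II sum ended all PG calls and no VEA call. The adipocyte sum ended those of Acly, Elovl5 (-0.44 ± 0.14, adjusted p = 0.0625), Acaa2, Acadm at 3.12 (-0.57 ± 0.19, adjusted p = 0.0863) and Ppargc1a (-1.27 ± 0.44, adjusted p = 0.113 at 3.12 and -0.91 ± 0.47, adjusted p = 0.319 at 12.5). The cardiac sum ended the same VEA calls, with Acly at -0.45 ± 0.18 (adjusted p = 0.192) and Elovl5 at -0.34 ± 0.15 (adjusted p = 0.299), against -0.51 ± 0.15 and -0.44 ± 0.12 without it, and that of Acsl4 over saline (0.47 ± 0.17, adjusted p = 0.122). The marker sums themselves differed between treatment groups, so these covariates cannot separate cell content from treatment. Low counts limit Ppargc1a, Fads2 and Pdk4 most.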

Other observations

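The groups of companion genes that could follow time of day or stress hormone were counted in the same fit. Of 14 circadian clock genes, 3 rose with PG at 826 and 4 with PG at 1100 over saline (21.4 and 28.6%). Of all genes, 0.136 and 7.31% were called there. With VEA at 3.12, 6.25 and 12.5 over ethanol, 0, 2 and 2 clock genes fell (0, 14.3 and 14.3%), against 5.51, 5.76 and 9.71% of all genes called. Of 10 glucocorticoid target genes, 3 rose with PG at 826 and 5 with PG at 1100 (30 and 50%). With VEA in order of dose, 2, 2 and 3 of them rose and 0, 3 and 3 fell (20, 50 and 60% called). Per1 is in both lists. The part of time of day or stress hormone in any comparison was not tested. The hour of killing is not stated in the labels.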
